A study of Oryza sativa with 12 samples.

Results

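OsDof (LOC_Os01g15900) and DREB1A (LOC_Os09g35030) are 2 transcription factor genes of rice whose leaf transcripts went in opposite directions with day length at the glume primordium differentiation stage. They are 2 of the 105 genes listed by the authors at that stage, where the mean signal in short-day (SD) leaves had to reach 2 times that in long-day (LD) leaves or fall to 0.5 of it. The paper's own counts of differentially expressed genes also required a limit on the P value and are smaller than the lists. Whether the 2 genes met that limit was not examined here. OsDof stood among the 57 genes with the higher signal in SD, and DREB1A among the 48 genes with the lower signal in SD. Both were chosen by these signals, for their opposite directions, so the SD and LD values are given as a description and no test was made on them. The later list, of 201 genes at the stage when pistil and stamen primordia form, held neither of them under its locus identifier. The 2 lists shared 30 loci, so most of the 105 glume-stage genes were likewise not on the later list.

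Dof proteins are transcription factors found in plants that bind DNA through a single zinc finger and recognise sites with the core AAAG. In Arabidopsis, the CYCLING DOF FACTOR members of the family repress the flowering gene CONSTANS in the morning and are removed later in the day by a complex that holds GIGANTEA. DREB1 proteins, also called CBF, belong to the AP2/ERF family and bind the dehydration-responsive element with the core CCGAC. They are known as activators of genes for tolerance of cold, and in Arabidopsis the circadian clock sets the time of day at which CBF genes can be expressed.

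All plants were Nongken 58S, the photoperiod-sensitive genic male sterile line of Oryza sativa ssp. japonica, and had received SD before the groups were divided. G-SSD2 plants then stayed in SD of 10 h light and 14 h dark, and G-SLD2 plants were moved to LD of 15 h light and 9 h dark. The second fully expanded leaf was taken at 02:00 h, a time of darkness, so each value is a level at a single clock hour. With nights of 14 h and 9 h, that hour lay at a different distance from dusk, dawn or both in the 2 groups. At a single hour, a change in level and a shift in daily timing cannot be told apart. Each group had 3 biological repeats, each on an Affymetrix rice array, and P-SSD2 and P-SLD2 were the same treatments at the later, pistil/stamen stage. The day lengths were compared within Nongken 58S only, with plants of the fertile parent line not analysed here. In a whole leaf, fewer cells that carry a transcript and less transcript per cell cannot be told apart.

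Over the 57194 probe sets other than controls, the median signal of the 6 glume-stage arrays ran from 7.60 to 8.67, and the Pearson correlation between repeats of a group ran from 0.916 to 0.965. It was lowest between repeats 2 and 3 of G-SLD2. Those probe sets are not paired with gene names in the files used here, so the signals of OsDof and DREB1A come only from the authors' list, in linear units after normalisation between arrays. For the same reason the leaf markers that had been chosen (4 genes of photosynthesis) could not be read, and none of them was listed at either stage.

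OsDof was also followed by quantitative PCR over the day in the study, at both stages. The paper describes its daily pattern there as similar to that of the clock gene OsLHY. The primer pair is shown, and whether it detects the same transcript as the array probes was not tested. The primers are given 5′ to 3′ and were not placed on a genome here. The forward primer has 21 bases and a GC content of 42.9%, and the reverse primer has 17 bases and a GC content of 64.7%.
OsDof forward: tttctgcaccaccatttccat
OsDof reverse: gccggccagctggataa

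OsDof, annotated as a protein with a Dof-type zinc finger domain, had signals of 843, 738 and 477 in repeats 1, 2 and 3 of G-SSD2. In G-SLD2 its signals were 86.3, 252 and 53.1. Every SD array was above every LD array, the nearest pair being SD repeat 3 and LD repeat 2, whose signals differed 1.90-fold. The group means were 686 ± 188 and 130.4 ± 106 (SD, n = 3 each), a 5.26-fold higher mean in SD. On the log2 scale the spread was 0.43 (SD, n = 3) among the SD repeats and 1.15 (SD, n = 3) among the LD repeats, so most of the scatter lay in LD. Without G-SLD2 repeat 2 the ratio of means was 9.84, so this array set much of the size. The fold was the 5th highest of the 57 genes listed as higher in SD, whose median was 2.37.

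DREB1A, annotated as DRE-binding protein 1A, had signals of 58.8, 141 and 54.6 in repeats 1, 2 and 3 of G-SSD2. In G-SLD2 its signals were 189, 179.5 and 341. The groups again did not overlap, but SD repeat 2 and LD repeat 2 came within 1.28-fold of each other. The mean over the 3 repeats was 237 ± 90.7 (SD) under LD and 84.6 ± 48.5 (SD) under SD, a 2.80-fold higher mean in LD. On the log2 scale the SD repeats spread by 0.76 and the LD repeats by 0.51 (standard deviations). Among the 48 genes lower in SD the ratio of SD to LD, 0.358, was the 27th lowest, close to their median of 0.335. Without repeat 2 of both groups the mean was 4.68-fold higher in LD, and without repeat 3 of both groups it was 1.85-fold higher.

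**Figure D1:**
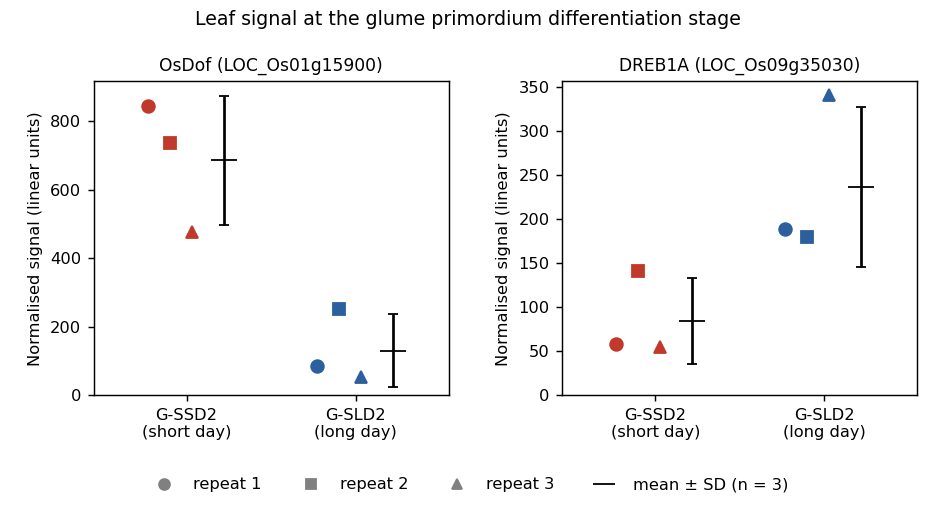
Normalised signal (linear units, each panel on its own scale from 0) of OsDof and DREB1A in leaves of G-SSD2 and G-SLD2, with symbols for the 3 repeats and a bar for the mean ± SD (n = 3). The OsDof signals lie from 477 to 843 in SD and from 53.1 to 252 in LD, and the DREB1A signals from 54.6 to 141 in SD and from 179.5 to 341 in LD.

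Groups that do not overlap were the usual state of the listed genes, since 98.2% of the 57 higher genes and 93.8% of the 48 lower genes showed no overlap. Over all probe sets of the array, after quantile normalisation of the deposited signals, 4.65% had every SD signal above every LD signal at this stage and 4.39% had every SD signal below. With a ratio of means of at least 2 or at most 0.5 in addition, the shares were 2.43% and 2.4%. With the signals as deposited these 4 shares were 5.8%, 3.33%, 2.84% and 2.05%. All of these shares came from another set of signals than the list did. The glume-stage contrast chose both genes, so nothing is read from their standing against these shares.

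The 2 genes had their smallest SD to LD difference between arrays of the same repeat number. For OsDof the signal was 9.77-fold higher in SD within repeat 1 and 8.99-fold within repeat 3, but 2.93-fold within repeat 2. For DREB1A it was 3.22-fold higher in LD within repeat 1 and 6.25-fold within repeat 3, but 1.28-fold within repeat 2. For OsDof it was the LD array of repeat 2 that stood high, and for DREB1A the SD array. Of the 105 listed genes, 46 had their smallest difference within repeat 2, 28 within repeat 1 and 31 within repeat 3. The labels give no shared plant, day or batch for arrays of a number, and the part of any such factor was not tested.

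Across the 6 arrays the log2 signals of OsDof and DREB1A had a Pearson correlation of -0.81, which the opposite group means largely fix. Once each group's mean was taken out, the correlation of what remained was -0.31, over 6 values with 4 degrees of freedom.

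The listed genes with a pattern most like that of OsDof included the dawn clock gene OsLHY and the homeodomain-leucine zipper gene Hox22. By the Pearson correlation of log2 signals over the 6 arrays, the 5 closest named genes were LOC_Os03g14910 (r = 0.989), annotated as an amino acid-polyamine transporter, OsLHY (LOC_Os08g06110, r = 0.985), LOC_Os10g42780 (r = 0.977), annotated as lrgB-like, Hox22 (LOC_Os04g45810, r = 0.976) and LOC_Os11g10420 (r = 0.976), annotated as a 1-phosphatidylinositol 4-kinase. All 5 were higher in SD, by 2.05-fold to 3.08-fold, against 5.26-fold for OsDof. Genes listed for being higher in SD correlate by construction, and the median r of the other higher genes with OsDof was 0.876.

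OsLHY and OsDof also shared the differences between repeats of a group, apart from their day-length difference. OsLHY, a MYB transcription factor of the core clock whose transcript peaks around dawn, had signals of 3516, 3463 and 2801 in SD and 1292, 1686 and 1038 in LD. As for OsDof, SD repeat 3 was the lowest of its group and LD repeat 2 the highest of its group. After removal of the group means the correlation with OsDof was 0.98 for OsLHY, 0.98 for LOC_Os03g14910, 0.94 for LOC_Os11g10420, and 0.89 for both LOC_Os10g42780 and Hox22, and the median over the other listed genes was 0.14. With G-SLD2 repeat 2 left out of the correlation, these became 0.97, 0.94, 0.91, 0.80 and 0.70 in the same order, over 5 arrays. The LD mean that was removed still included repeat 2, so these values are not free of that array. These genes were picked for a high correlation over the same 6 arrays, which were normalised together, so the values are a description and carry no p-value.

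The array of G-SLD2 repeat 2 was the highest of its group for OsDof and for all 5 genes closest to it. Over the 57 genes higher in SD it was highest for 23, repeat 1 for 20 and repeat 3 for 14. The MYB-related clock gene LOC_Os06g51260, annotated as CCA1, had 149, 475 and 162 in LD and 772, 673 and 614 in SD. Its SD to LD ratio was thus 5.16 within repeat 1 and 1.42 within repeat 2. The other MYB-related clock gene, LOC_Os02g46030, had ratios of 2.47, 1.74 and 2.80 within repeats 1, 2 and 3. OsLHY and both of these MYB-related genes shared with OsDof the smallest ratio in repeat 2.

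A gene with the opposite day-length difference could still follow OsDof from repeat to repeat. The heat shock factor gene LOC_Os01g53220, annotated as RHSF11 and chosen here after its values were seen, had 132, 147 and 116 in SD and 244, 449 and 220.1 in LD, a 2.30-fold higher mean in LD. Its correlation with OsDof was -0.53 over the 6 arrays but 0.96 after removal of the group means, and again LD repeat 2 was the highest array.

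**Figure D2:**
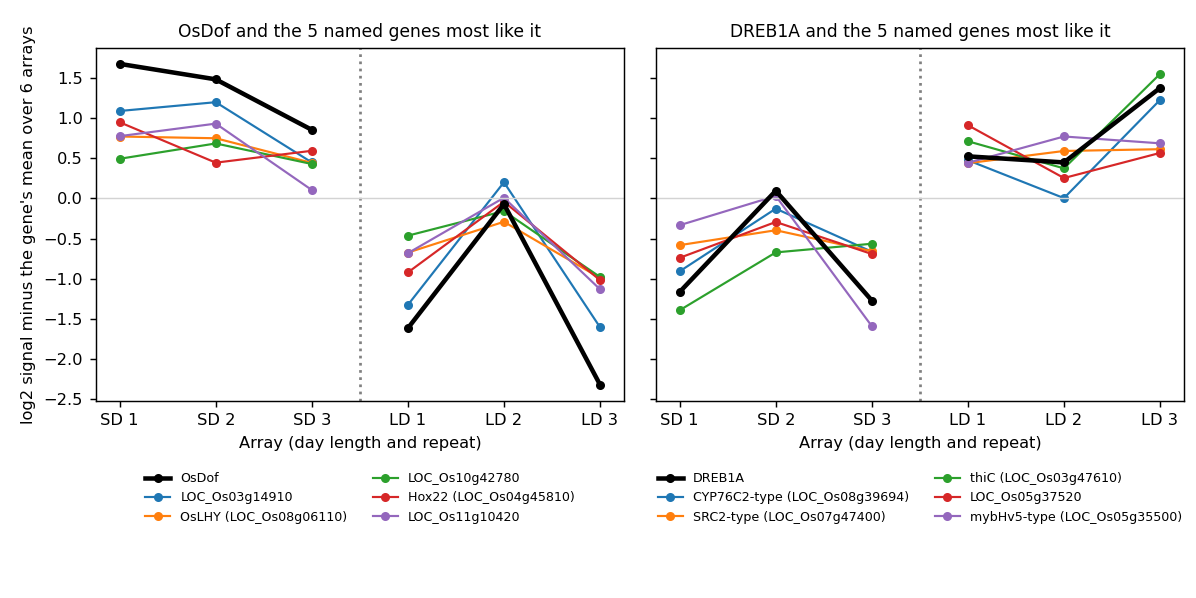
log2 signal of each gene minus its own mean over the 6 glume-stage arrays, for OsDof (left, black) and DREB1A (right, black) and the 5 named genes most correlated with each; lines only join the points of a gene within a group, and the repeats have no order. In LD, OsDof and its 5 closest genes are highest in repeat 2; in SD, DREB1A is highest in repeat 2 and in LD in repeat 3.

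The 5 named genes closest to DREB1A were less close than those to OsDof. They were LOC_Os08g39694 (r = 0.954), annotated as cytochrome P450 76C2, LOC_Os07g47400 (r = 0.896), annotated by the soybean cold-regulated gene SRC2, thiC (LOC_Os03g47610, r = 0.891), the thiamine biosynthesis gene, LOC_Os05g37520 (r = 0.874), annotated as an RNA processing protein with HAT and TPR motifs, and LOC_Os05g35500 (r = 0.861), annotated by the barley MYB gene mybHv5. All were higher in LD, by 2.13-fold to 3.47-fold. Listed rows without a gene function were passed over, 3 of which had a higher r than the last of these 5. One of them, AK058208, was closer to DREB1A than any of the 5, with an r of 0.975 (0.92 after removal of the group means). Besides DREB1A itself, 2 listed genes had an r over 0.9 with it, and 24 had an r over 0.9 with OsDof.

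The cytochrome P450 gene LOC_Os08g39694 had signals of 32.9, 56.5 and 39.0 in SD and 85.8, 61.9 and 144 in LD. It shared with DREB1A a high SD repeat 2, a low LD repeat 2 and a high LD repeat 3, and its correlation with DREB1A after removal of the group means was 0.86. The SRC2-type gene LOC_Os07g47400 had 65.8, 74.8 and 62.4 in SD and 133, 148 and 150.4 in LD. Its LD repeats lay close together, unlike those of DREB1A, and its correlation after removal of the group means was 0.83. The cysteine protease gene LOC_Os03g54130, chosen after its values were seen, had the highest such correlation of the genes with an annotated function, 0.91, although its mean was 2.02-fold higher in SD.

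The authors' lists are short beside the array. With each listed gene taken as 1 probe set, 0.0997% of the 57194 probe sets were listed as higher and 0.0839% as lower in SD at the glume stage, and 0.171% and 0.18% at the pistil/stamen stage. The gene lists used here were written with the listed genes known, and several probe sets can stand for a gene, so nothing about a family is read from its count against these shares. Of 30 Dof family entries, 2 were listed at the glume stage. One is OsDof, chosen for being higher in SD, and the other, also higher in SD, was LOC_Os10g26620, annotated as a putative H-protein promoter binding factor-2a, a name given to Dof proteins in Arabidopsis. It had 672, 437 and 414 in SD and 215, 310.2 and 212 in LD, a 2.07-fold higher mean in SD. Its 6 arrays ranked as those of OsDof did, with SD repeat 1 highest and LD repeat 3 lowest, and the correlation between them was 0.949. This order was not particular to Dof genes. OsLHY, LOC_Os01g50460, AK105697 and LOC_Os07g44330 had it too, and the median r of the other higher genes with OsDof was 0.876.

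The pistil/stamen list held 1 Dof entry, AK063318, annotated as a Dof zinc finger protein. Its signals were 974, 611 and 518 in P-SSD2 and 356, 178 and 186 in P-SLD2, a 2.92-fold higher mean in SD. The groups did not overlap, as for 85.7% of the 98 genes listed as higher in SD at that stage. Which locus AK063318 belongs to is not given in the tables used here, so it is kept apart from the other Dof genes. In contrast to OsDof at the glume stage, its LD signal was highest in repeat 1.

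Of the 10 genes in the rice DREB1 family, DREB1A alone was listed at the glume stage and none at the later stage. RefSeq (ASM3414082v1), which carries no LOC_Os identifiers, has 9 genes under DREB1 names and places DREB1A on chromosome 9 next to DREB1H, with DREB1B beyond it. A gene is listed only past the fold limits, so its absence does not give its ratio, and the signals of the other DREB1 genes were not analysed here. How far the probes for DREB1A also detect transcripts of the related neighbouring genes was not tested.

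Of a list of 10 genes of cold and dehydration response, 4 were listed at the glume stage, 1 higher and 3 lower in SD. Those lower in SD were the SRC2-type gene (2.13-fold higher in LD), LOC_Os12g39630 (2.03-fold higher in LD), annotated as SAPK9 and a member of the kinase family that acts in osmotic stress and abscisic acid signalling, and LOC_Os03g22050 (2.21-fold higher in LD), annotated as CIPK15, a kinase that works with calcineurin B-like calcium sensors. They had the direction of DREB1A, and Hox22 had that of OsDof. The median ratio of the 4 was 0.482, where the 105 genes were split into 57 higher and 48 lower. SAPK9 and CIPK15 were less like DREB1A across the arrays, with an r of 0.75 and 0.76, which is about the 0.753 of the median gene lower in SD. This list includes genes taken from the deposited table with their values known, so its counts are no independent evidence of a direction.

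Of a list of 15 clock genes, 6 were listed at the glume stage, 3 with the direction of OsDof and 3 with that of DREB1A, beside 57 and 48 of all 105 listed genes. OsLHY and both MYB-related genes had an r of at least 0.95 with OsDof. The afternoon- and evening-phased genes OsPRR37 (LOC_Os07g49460), OsGI (LOC_Os01g08700) and OsLUX (LOC_Os01g74020, annotated as ARR1-like) were lower in SD and had an r of 0.81, 0.67 and 0.61 with DREB1A. After removal of the group means these were -0.05, -0.33 and -0.41, so they shared with DREB1A the day-length difference and not the order of the repeats. OsPRR37 had nearly the same ratio in each repeat, from 0.307 to 0.368, where DREB1A ranged from 0.160 to 0.783.

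**Figure D3:**
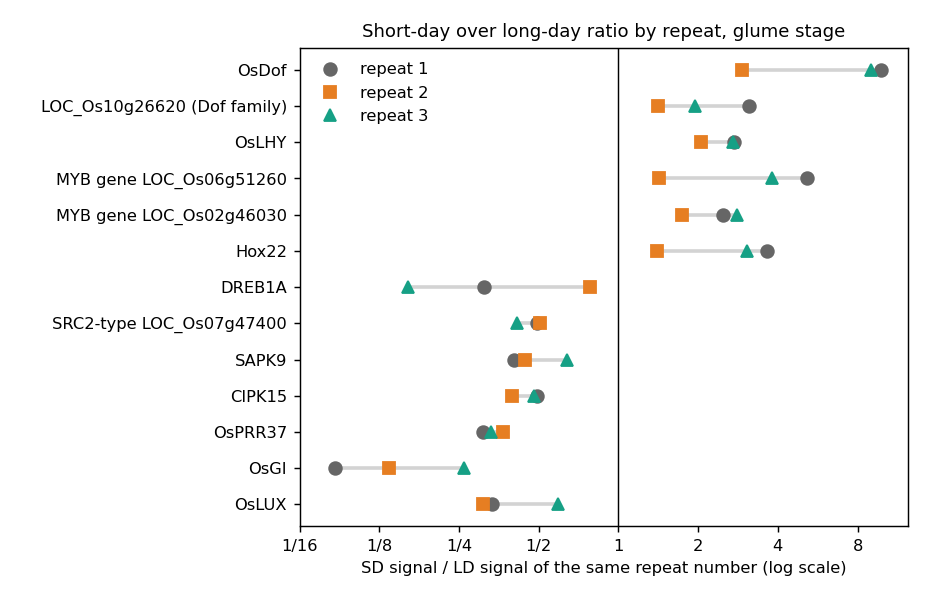
Ratio of the SD signal to the LD signal of the same repeat number at the glume stage (log scale, 1 meaning equal), with a symbol per repeat and a grey bar from the lowest to the highest. Repeat 2 gives the ratio closest to 1 for OsDof (2.93), LOC_Os10g26620, OsLHY, LOC_Os06g51260, LOC_Os02g46030, Hox22 and DREB1A (0.783), and also for the SRC2-type gene and OsPRR37. Another repeat is closest to 1 for SAPK9, CIPK15, OsGI and OsLUX.

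Of a list of 7 photoperiodic flowering genes, 3 were listed at the glume stage and all were higher in SD, as were 57 of the 105 listed genes. These were Ehd1 (LOC_Os10g32600), an activator of florigen, Hd3a (LOC_Os06g06320), a florigen gene, and OsMADS1 (LOC_Os03g11614), a floral identity gene. In this order their r with OsDof over the 6 arrays was 0.83, 0.87 and 0.92, near the median of the higher genes. After removal of the group means it was -0.31, -0.67 and 0.57, so Hd3a and Ehd1 did not share the order of repeats seen for OsDof and OsLHY.

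Beside the 105 genes listed at the glume stage, 30 loci were listed again at the pistil/stamen stage. Among the 5 genes closest to OsDof, Hox22 was the 1 listed again at that stage. There it had 1047, 755 and 324 in P-SSD2 and 203, 376 and 113 in P-SLD2, a 3.08-fold higher mean in SD. LOC_Os06g51260 was also listed there, with 734, 1117 and 659 in P-SSD2 and 67.5, 427 and 80.1 in P-SLD2. For both, LD repeat 2 was again the highest array of its group, as for 38 of the 98 genes listed as higher in SD at that stage (31 for repeat 1 and 29 for repeat 3). Hox22 overlapped between the day lengths at this stage, since its LD repeat 2 was above its SD repeat 3. Of the 5 named genes closest to DREB1A, thiC was the 1 listed again, with a ratio of SD to LD of 0.205. Beside the 30 shared loci, nothing about the stage is read from these counts.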

How the data were processed

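The authors hybridised leaf RNA to Affymetrix rice arrays (GCOS 1.4) and deposited, for each stage, linear signal intensity of the listed genes, those past the fold limits of 2 and 0.5. Per the methods, dChip normalised the arrays to an invariant set, and the background was taken as 5% of the signals of perfect-match probes. The deposited tables also hold the authors' fold (a ratio) and P value (a p-value), which were not used. A further deposited table holds linear signal intensity of 57194 probe sets and 187 controls, without gene names. The sample headers of the glume table carry the other stage's letter; they were read as glume arrays because the table is named so and a supplementary table gives the values under glume headers.

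Ratios of group means, standard deviations and correlations were computed from the listed signals with Python 3.11.15, pandas 2.3.3 and numpy 2.4.6. The code of the correlation ranking was checked on random profiles with close copies planted among them. That check does not show how stable the ranking is for the listed genes, which share a day-length difference by selection. The rule for named genes took the 5 most correlated genes with a function, and the listed members of the gene lists, which were compiled by locus from general knowledge of rice and from the annotations. Members and lists were chosen with earlier results of these data known. A limma test at the pistil/stamen stage had been planned and was not run. Neither gene was listed there under its locus identifier, and no probe set is paired with either gene here. Depth on arrays is their number, 3 per group, which limits each mean.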

Additional observations from a re-analysis of the deposited data

How the results depend on the processing

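The direction of both genes was kept under all alternatives run. Their SD and LD signals did not overlap, so none of these alternatives could have reversed it, and only the size of the ratios is compared. The ratio of SD to LD for OsDof was 5.26 with group means, 6.36 with geometric means, 8.55 with medians and 4.42 with an offset of 32, and with 1 array left out it ran from 4.06 to 9.84, the highest value being that without G-SLD2 repeat 2. For DREB1A it was 0.358, 0.339, 0.311 and 0.434, and with 1 array left out it ran from 0.240 to 0.459. Leaving out a repeat number in both groups, an alternative chosen after the data were seen, gave 3.99 to 9.47 for OsDof and 0.214 (without repeat 2) to 0.541 (without repeat 3) for DREB1A. With the repeat number as a replicate block the ratios were 6.36 and 0.339, equal to those of geometric means. Over the 105 genes the deviations of same-numbered arrays correlated at 0.07, -0.03 and 0.35, and those of differently numbered arrays from -0.292 to 0.249. SD repeat 1 correlated best with LD repeat 2 (0.249), and SD repeat 2 with LD repeat 1 (0.22). For repeat 3 alone were the 2 arrays of a number each other's best match. Whether same-numbered arrays share a factor was not tested. Of the 5 genes closest to OsDof, 1 was among the 5 closest by Spearman correlation, where several genes tied, and 2 by correlation of linear signals. For DREB1A these were 3 and 3. OsLHY was among the 5 closest to OsDof in each case. The planned test and its alternatives at the pistil/stamen stage were not run, because no probe set is paired with either gene here. The limit on all of these values is 3 arrays per group and a list cut by fold.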
